A study of Mus musculus with 12 samples.

Results

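The 8 genes described here, Kcnj2, Kcnj12, Kcnj3, Kcnj5, Kcnj11, Kcnj8, Abcc9 and Abcc8, encode the inward rectifier and ATP-sensitive potassium (KATP) channel subunits of heart muscle and its vessels. They were chosen by name, with earlier results of these data known, from a table of 78334 genes. All 8 were among the 16981 genes with enough reads to be tested. RNA-seq libraries had been made from left ventricle of mice in 3 groups of 4 biological replicates, each called a heart below. The UNX/DOCA ITF2357 mice had undergone UNX/DOCA surgery, a model of diastolic dysfunction whose name is the usual short form for uninephrectomy with deoxycorticosterone acetate, and after 4 weeks ate chow containing ITF2357 (givinostat), an inhibitor of histone deacetylases, for another 4 weeks. The UNX/DOCA vehicle mice had the same surgery and ate normal chow over the same weeks. The Sham vehicle mice had sham surgery and normal chow. No sham group on ITF2357 was analysed here, and strain, sex and age were not given in the sources used here. The tissue pieces, of about 10 mg, hold myocytes together with vessel, connective tissue and blood cells.

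Inward rectifiers pass potassium more easily into the cell than out of it and hold the resting potential of the myocyte. Kir2 channels, from Kcnj2 and Kcnj12, carry the classical inward rectifier current of ventricle; Kir3.1 and Kir3.4, from Kcnj3 and Kcnj5, join into the acetylcholine-gated channel that G protein beta-gamma subunits open, best known in atrium and pacemaker tissue. KATP channels couple metabolism to excitability: pores of Kir6.2 (Kcnj11) or Kir6.1 (Kcnj8) assemble with a sulfonylurea receptor, SUR2 (Abcc9) or SUR1 (Abcc8), which senses magnesium nucleotides. In mouse, Kir6.2 with SUR2 is the main ventricular form and Kir6.1 with SUR2 the form of vascular smooth muscle and pericytes.

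RefSeq promoter windows on GRCm38.p6, from 250 bases before the transcription start to 10 bases after it, matched 6 of the 8 genes. The 4 printed here are those of Abcc9, Kcnj3 and Kcnj5, whose levels separated UNX/DOCA vehicle from Sham vehicle hearts, and of Kcnj8, which lies next to Abcc9 on chromosome 6 and whose levels did not. Each is read 5′ to 3′ on the strand of its gene, and capitals mark a MEF2-type motif, the binding motif of a muscle transcription factor family. The Abcc9 window is chr6:142702265-142702524 on the minus strand, the Kcnj8 window chr6:142571605-142571864 on the minus strand, the Kcnj3 window chr2:55435720-55435979 on the plus strand and the Kcnj5 window chr9:32344335-32344594 on the minus strand.
Abcc9: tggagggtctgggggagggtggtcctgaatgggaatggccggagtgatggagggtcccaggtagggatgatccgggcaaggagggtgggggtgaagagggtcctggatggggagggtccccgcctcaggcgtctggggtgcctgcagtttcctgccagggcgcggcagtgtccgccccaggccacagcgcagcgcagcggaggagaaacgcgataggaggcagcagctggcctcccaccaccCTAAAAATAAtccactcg
Kcnj8: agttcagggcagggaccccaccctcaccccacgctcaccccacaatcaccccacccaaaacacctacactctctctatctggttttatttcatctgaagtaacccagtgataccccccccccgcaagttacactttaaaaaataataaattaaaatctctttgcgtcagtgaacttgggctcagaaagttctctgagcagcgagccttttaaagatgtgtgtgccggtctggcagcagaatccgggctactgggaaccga
Kcnj3: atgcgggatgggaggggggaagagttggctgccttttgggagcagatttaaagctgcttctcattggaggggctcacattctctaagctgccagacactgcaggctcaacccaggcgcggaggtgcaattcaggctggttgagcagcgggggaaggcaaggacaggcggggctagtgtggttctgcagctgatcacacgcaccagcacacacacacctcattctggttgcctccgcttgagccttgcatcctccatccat
Kcnj5: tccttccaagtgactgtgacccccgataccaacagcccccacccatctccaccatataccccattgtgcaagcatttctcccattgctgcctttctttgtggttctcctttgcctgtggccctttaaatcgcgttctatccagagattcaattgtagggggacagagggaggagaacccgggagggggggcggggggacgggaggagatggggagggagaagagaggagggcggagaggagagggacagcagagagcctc
Both strands were searched for the MEF2-type motif and for 4 others. These were the steroid receptor motif TGTTCT, the GATA factor motif, spelled AGATAA, the core promoter box with the letters TATAAA, and the palindromic E-box CACGTG. A MEF2-type match and the core promoter box can share letters. The MEF2-type motif was added to the search after the sequences had been seen. Of these 4 windows, that of Abcc9 alone held a match, CTAAAAATAA, which starts 8 bases before the transcription start. Among 32851 promoter windows of the same length, 2.98% held a MEF2-type match, 16.7% the steroid receptor motif, 10.3% the GATA factor motif, 12.7% the core promoter box and 6.34% the E-box. The 260 bases of Abcc9 were 66.15% G or C with 13 CpG sites, and those of Kcnj8 49.62% with 7, against medians of 52.31% and 6 over all windows. In the window of Kcnj2, the E-box was the match found, starting 84 bases before the start.

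Libraries held 23354045 to 34908810 gene counts, and each of the 8 genes had at least 395 reads in each library. Values below are in CPM, counts relative to the library's total, scaled between libraries by the trimmed mean of M-values (TMM). Markers of ventricular myocytes, led by Myh6, summed to 56365 to 61913 CPM in UNX/DOCA ITF2357, 53858 to 61264 CPM in UNX/DOCA vehicle and 56615 to 68628 CPM in Sham vehicle hearts. Replicates 3 and 4 of UNX/DOCA vehicle stood apart in the summed level of 6 neutrophil genes, at 511 and 158 CPM, against 3.81 to 44.9 CPM in the other 10 libraries. The tests of Abcc9, Kcnj3, Kcnj5 and Kcnj12, and of the pathway genes Gnai1, Rgs6, Flna and Ldha, are also given without these 2 hearts.

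The genes of the acetylcholine-gated channel pair and of SUR2 averaged lower after UNX/DOCA surgery: all 4 UNX/DOCA vehicle hearts lay below all 4 Sham vehicle hearts in Kcnj3, Kcnj5 and Abcc9, with fitted changes of -36.2%, -43.4% and -31.4%. The other 5 genes overlapped between these groups. With edgeR's quasi-likelihood test and adjustment over 16981 genes, none of the 8 passed 0.05, where 0% of all genes did; 3 of the 8 were lower without overlap, against 4.36% of all genes. At an unadjusted p under 0.05, 2699 genes (15.9%) differed in either direction, and 3 of the 8 were lower, against 6.47% of all genes. DESeq2 called Abcc9 and Kcnj3 lower, with adjusted p of 0.00351 and 0.00199, where it called 1.26% of genes lower (189 of 15002). limma-voom with sample weights called the same genes, with adjusted p of 0.0272 and 0.0256, where it called 1.16% lower (197 of 16981). Without UNX/DOCA vehicle replicates 3 and 4, a setting added after the data had been seen, neither tool called any of the 8: the adjusted p of Abcc9 and Kcnj3 were 0.0815 and 0.238 in DESeq2 and 0.482 and 0.565 in limma-voom. That setting left only replicates 1 and 2 in the UNX/DOCA vehicle group. Over all genes, limma-voom then called none and DESeq2 called fewer than with all libraries, so the lost calls are not particular to these genes. Over the 8 genes the median log2 fold change was -0.25 and 7 lay below 0, against a median of 0.01 and 48.9% over all genes. Because the 8 genes were chosen with earlier results known, shares set beside those of all genes, here and below, are descriptions. They do not test the set.

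Under ITF2357 the 4 hearts overlapped those of UNX/DOCA vehicle in each of the 8 genes, where 9.31% of all genes did not overlap. None passed the adjusted threshold, against 0.901% of all genes (153), and neither DESeq2 (5.47% of genes) nor limma-voom (1.48%) called any of them. At an unadjusted p under 0.05, 1 gene, Kcnj12, was higher, against 8.7% of all genes. The median log2 fold change of the 8 was 0.15 and 7 lay above 0, against 0.00 and 49.8% over all genes. This comparison and the preceding one share the UNX/DOCA vehicle hearts, so their opposite signs are not separate observations.

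UNX/DOCA ITF2357 hearts lay below Sham vehicle hearts in Kcnj3 and Abcc9. These 2 of the 8 genes were lower without overlap, against 6.39% of all genes, and none of the 8 passed the adjusted edgeR threshold, against 1.75% (298 genes). DESeq2 called Kcnj3 lower, with an adjusted p of 0.00832, where it called 3.67% of genes lower. limma-voom called Kcnj3 and Abcc9 lower, with adjusted p of 0.0209 and 0.0203, where it called 4.25% lower. Without UNX/DOCA vehicle replicates 3 and 4 both tools called both genes lower, with adjusted p of 0.00619 and 0.00986 in DESeq2 and 0.0264 and 0.0219 in limma-voom for Kcnj3 and Abcc9. In this setting edgeR called none of the 8. The share of all genes called lower was not taken there, and the totals given with the processing settings cover both directions. These calls therefore cannot be set against such a share. The hearts left out are in neither group compared here, so the setting changes only the processing and fit shared by all libraries. With both UNX/DOCA groups averaged, a comparison added after the data had been seen, all 8 UNX/DOCA hearts lay below all 4 Sham vehicle hearts in Kcnj3 and Abcc9; 1.18% of all genes were lower in this way. The adjusted p in edgeR was then 0.0622 for Kcnj3 and 0.0778 for Abcc9, where 0.0236% of all genes passed 0.05. Each comparison with Sham vehicle rests on the same 4 hearts of that group, so lower values in them are not separate observations.

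**Figure D1:**
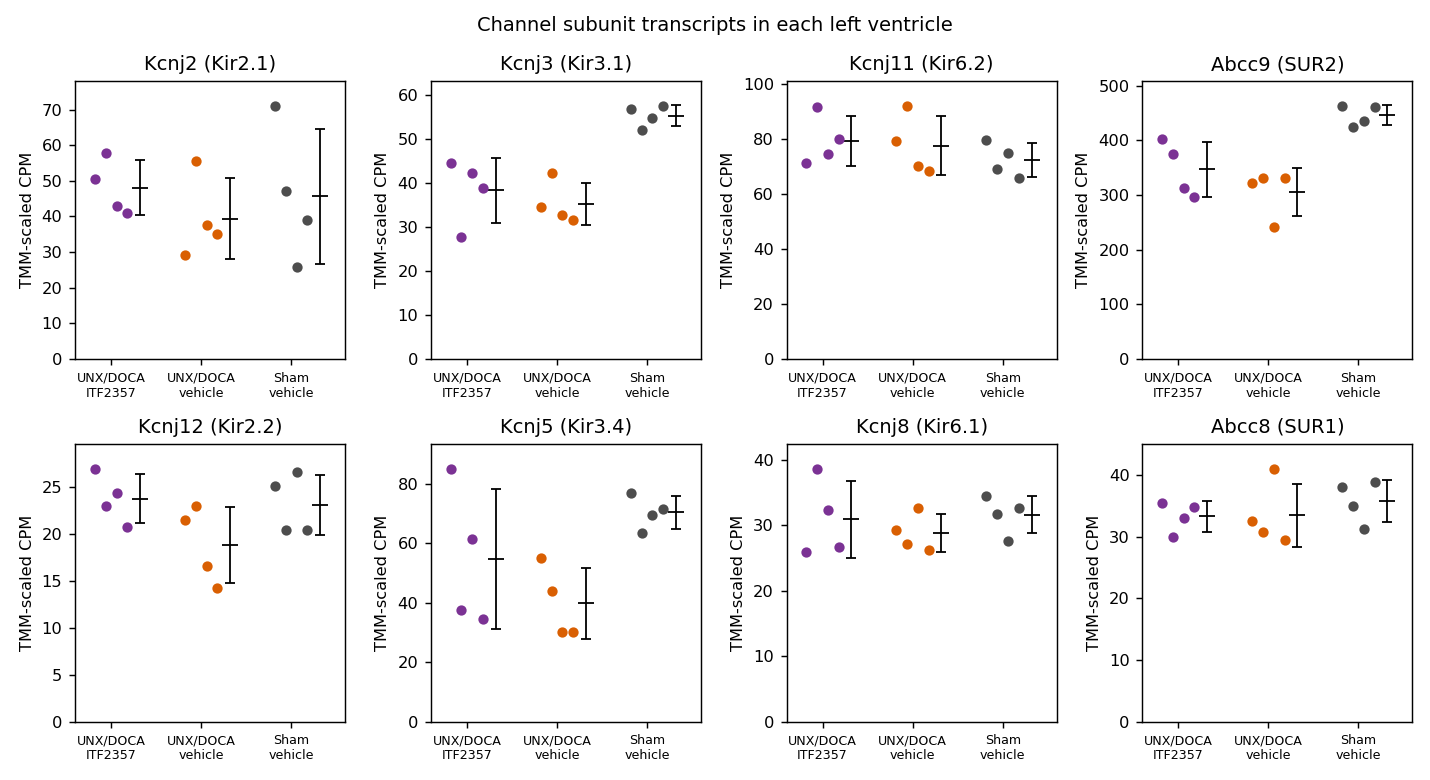
TMM-scaled CPM of each channel gene, on linear axes from 0, in the 4 hearts of each group; points are hearts in replicate order and the bar beside them is the mean ± SD (n = 4). In Kcnj3 and Abcc9 the points of both UNX/DOCA groups sit below all Sham vehicle points, and in Kcnj5 those of UNX/DOCA vehicle do.

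**Figure D2:**
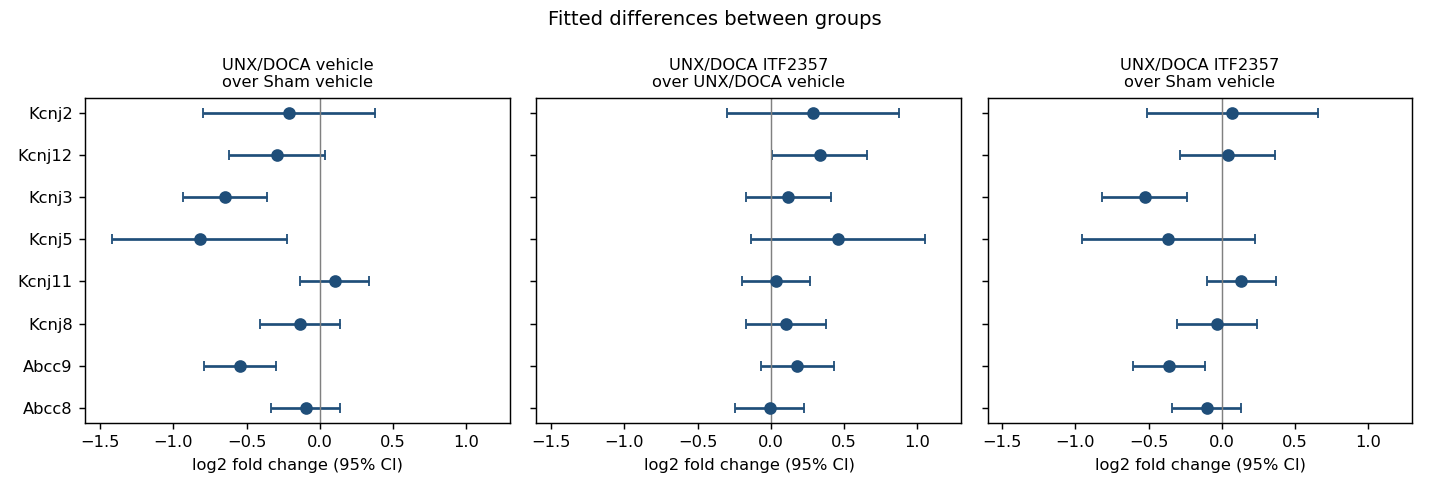
Fitted log2 fold changes of the 8 genes in 3 comparisons, as points with 95% confidence intervals from edgeR's fit over all 12 hearts. The intervals of Kcnj3, Kcnj5 and Abcc9 lie below 0 in UNX/DOCA vehicle over Sham vehicle, and those of Kcnj3 and Abcc9 also in UNX/DOCA ITF2357 over Sham vehicle; none of these passed the adjusted threshold in this fit.

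Abcc9 encodes SUR2, the regulatory subunit that sets the nucleotide and drug response of cardiac KATP channels. It had 403, 375, 313 and 296 CPM in UNX/DOCA ITF2357 hearts and 321, 331, 241 and 331 CPM in UNX/DOCA vehicle hearts, against 462, 425, 436 and 461 CPM in Sham vehicle hearts. The Sham vehicle hearts were the 4 highest of the 12, and replicate 3 of UNX/DOCA vehicle was the lowest. The log2 fold change of UNX/DOCA vehicle over Sham vehicle was -0.54 ± 0.11 (SE; 95% interval -0.79 to -0.30; edgeR adjusted p = 0.0954). Without replicate 1 of UNX/DOCA vehicle the adjusted p was 0.0479, and over the 12 libraries left out in turn it ran up to 0.279 with log2 fold changes of -0.59 to -0.45. Without UNX/DOCA vehicle replicates 3 and 4 it was -0.45, with an adjusted p of 0.563. UNX/DOCA ITF2357 over Sham vehicle gave -0.36 ± 0.11 (SE; interval -0.61 to -0.12; adjusted p = 0.107, and 0.0428 without UNX/DOCA vehicle replicate 3). Over the libraries left out in turn, the edgeR adjusted p of this comparison ran up to 0.234, with log2 fold changes of -0.45 to -0.30. ITF2357 over vehicle in UNX/DOCA mice gave 0.18 ± 0.11 (SE; interval -0.07 to 0.43; adjusted p = 0.418). In tissue libraries, fewer cells of a type and less RNA per cell cannot be told apart.

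Cell types that use SUR2 were followed by their markers. The 10 ventricular myocyte markers had a median log2 fold change of -0.12 in UNX/DOCA vehicle over Sham vehicle, with 9 of 10 below 0 and none called. In UNX/DOCA ITF2357 over Sham vehicle the median was -0.11, with 6 below 0 and 4 above. Ryr2 of this list had 1451 to 1665 CPM in UNX/DOCA ITF2357 and 1122 to 1739 CPM in UNX/DOCA vehicle hearts. All of these lay below the 1842 to 2117 CPM of Sham vehicle hearts, as in Abcc9. Ryr2 does not stand for its list. Tnnt2 averaged 8703 CPM in UNX/DOCA ITF2357 against 7739 CPM in Sham vehicle hearts, and Myl2 6679 against 5872 CPM. The 8 pericyte markers, led by Rgs5, summed to 780 to 926 CPM in UNX/DOCA ITF2357, 777 to 890 CPM in UNX/DOCA vehicle and 760 to 805 CPM in Sham vehicle hearts. Smooth muscle markers, 6 of 7 tested and led by Acta2, summed to 221 to 434 CPM in UNX/DOCA ITF2357, 443 to 640 CPM in UNX/DOCA vehicle and 393 to 548 CPM in Sham vehicle hearts. In UNX/DOCA ITF2357 over Sham vehicle 4 of these 6 lay above 0, with a median log2 fold change of 0.50. Smtn, a cytoskeletal gene of that list, was the one called, lower in UNX/DOCA ITF2357 than in Sham vehicle hearts (log2 fold change -0.49; edgeR adjusted p = 0.0229). Acta2 had -0.95 (adjusted p = 0.121), while Cnn1, Lmod1, Myh11 and Mylk had 1.63, 0.85, 0.66 and 0.33 (adjusted p = 0.126, 0.296, 0.253 and 0.430). No marker of these 3 lists was at 0 in all libraries, and their part in the Abcc9 values was not tested.

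The pore subunits of the KATP channel overlapped between all groups. Kcnj11, encoding Kir6.2, had 71.3, 91.7, 74.6 and 80.0 CPM in UNX/DOCA ITF2357, 79.6, 92.0, 70.4 and 68.5 CPM in UNX/DOCA vehicle, and 79.8, 69.1, 75.0 and 65.8 CPM in Sham vehicle hearts. The 3 groups overlapped throughout. Its log2 fold change was 0.10 ± 0.11 in UNX/DOCA vehicle over Sham vehicle (SE; interval -0.13 to 0.33; adjusted p = 0.686), 0.03 in ITF2357 over vehicle (interval -0.20 to 0.27; adjusted p = 0.903) and 0.13 in UNX/DOCA ITF2357 over Sham vehicle (interval -0.10 to 0.37; adjusted p = 0.528). Kcnj8, encoding Kir6.1, had 25.9, 38.6, 32.3 and 26.6 CPM in UNX/DOCA ITF2357, 29.3, 27.1, 32.6 and 26.2 CPM in UNX/DOCA vehicle, and 34.5, 31.7, 27.7 and 32.6 CPM in Sham vehicle hearts. Its groups also overlapped, with log2 fold changes of -0.14 ± 0.13, 0.10 ± 0.13 and -0.03 ± 0.13 (SE) in the same 3 comparisons and adjusted p of 0.631, 0.703 and 0.915. Abcc8, encoding SUR1, the receptor best known from pancreatic beta cells and present in mouse atrium, had 29.9 to 35.5 CPM in UNX/DOCA ITF2357, 29.5 to 41.0 CPM in UNX/DOCA vehicle and 31.3 to 38.8 CPM in Sham vehicle hearts. Its log2 fold changes were -0.10 ± 0.11, -0.01 ± 0.11 and -0.10 ± 0.11 (SE), with adjusted p of 0.703, 0.981 and 0.638.

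Levels were compared between genes per kilobase of merged exon, with GENCODE vM21 lengths of 2548 bases (Kcnj8) to 8373 bases (Abcc9). In each group Abcc9 was the most abundant of the 8 and Kcnj11 the next, without overlap between them, and Abcc8 averaged lowest. Abcc8 did not overlap the next gene in the order in any group, but the lowest Sham vehicle value of Kcnj2 lay within its range. Abcc9 averaged 41.4 ± 6.04 in UNX/DOCA ITF2357, 36.5 ± 5.21 in UNX/DOCA vehicle and 53.3 ± 2.22 CPM per kb in Sham vehicle hearts (SD, n = 4). Kcnj11 averaged 21.6 ± 2.43, 21.1 ± 2.93 and 19.7 ± 1.69 CPM per kb in the same order of groups, and Abcc8 4.12 ± 0.308, 4.14 ± 0.637 and 4.42 ± 0.424 CPM per kb. Between these lay the other genes, whose order differed with the group. Kcnj5 averaged 11.7 ± 5.03 in UNX/DOCA ITF2357, 8.50 ± 2.58 in UNX/DOCA vehicle and 15.0 ± 1.19 CPM per kb in Sham vehicle hearts, and Kcnj8 12.1 ± 2.31, 11.3 ± 1.12 and 12.4 ± 1.13 CPM per kb. These neighbours in the order overlapped in both UNX/DOCA groups, with Kcnj8 above Kcnj5 on average, while in Sham vehicle Kcnj5 lay above Kcnj8 without overlap. Kcnj3 was the seventh of the 8 in UNX/DOCA ITF2357 and UNX/DOCA vehicle, at 7.34 ± 1.43 and 6.76 ± 0.923 CPM per kb, and the fifth in Sham vehicle, at 10.6 ± 0.454 CPM per kb. Kcnj2 averaged 8.82, 7.24 and 8.39 CPM per kb and Kcnj12 8.62, 6.84 and 8.39 CPM per kb in the 3 groups, and each overlapped the gene above it in the order in every group.

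**Figure D3:**
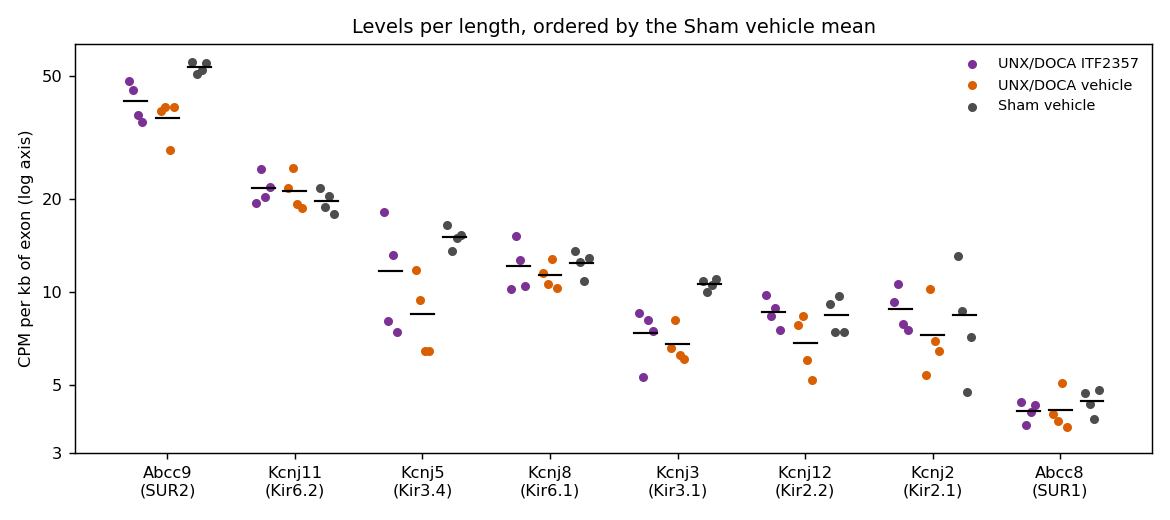
CPM per kilobase of exon for each gene on a log axis, ordered by the Sham vehicle mean; points are hearts, colours are groups and short lines are means of 4 hearts. Abcc9 is on top in each group and Abcc8 at the bottom, and the order of the genes between them differs with the group.

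Relative to Kcnj11, the gene of its main ventricular pore, Abcc9 stood lower in the UNX/DOCA hearts. Abcc9 over Kcnj11, both per length, was 2.48, 1.80, 1.84 and 1.62 in UNX/DOCA ITF2357 hearts and 1.77, 1.58, 1.50 and 2.12 in UNX/DOCA vehicle hearts, against 2.55, 2.7, 2.55 and 3.08 in Sham vehicle hearts. All 8 UNX/DOCA hearts lay below all 4 Sham vehicle hearts, those of UNX/DOCA vehicle replicates 1 and 2 (1.77 and 1.58) included. Abcc9 over Abcc8 was 8.23 to 12.1, 5.68 to 10.8 and 11.5 to 13.5 in the same order of groups, without overlap between UNX/DOCA vehicle and Sham vehicle. Kcnj11 over Kcnj8 was 1.60 to 2.08, 1.50 to 2.36 and 1.40 to 1.88, and overlapped in all 3 groups. Abcc9 over Kcnj8, the other pore gene, was not among the ratios formed. Abcc9 and Kcnj8 had 48.1 and 10.2 CPM per kb in UNX/DOCA ITF2357 replicate 1, against 50.8 and 12.4 in Sham vehicle replicate 2. Relative to Kcnj8, UNX/DOCA ITF2357 and Sham vehicle hearts were therefore not apart in Abcc9. These ratios are transcript ratios, are given as descriptions without a test, and do not measure the makeup of channels.

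**Figure D4:**
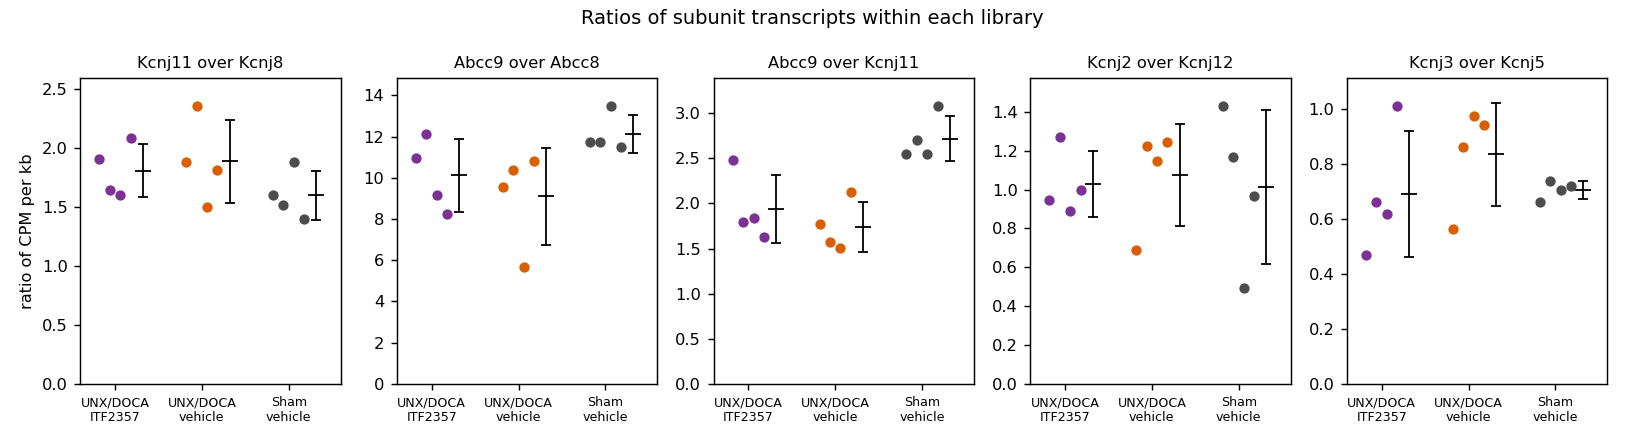
Ratios of 2 subunit transcripts per kilobase in each heart, on linear axes from 0, with the mean ± SD beside the points (n = 4 a group). Only Abcc9 over Kcnj11 keeps both UNX/DOCA groups apart from Sham vehicle among the 5 ratios, with 1.62 to 2.48 and 1.50 to 2.12 against 2.55 to 3.08.

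The acetylcholine-gated pair had the lowest fold changes of the 8 genes in UNX/DOCA vehicle over Sham vehicle. Kcnj3, encoding Kir3.1, had 44.4, 27.6, 42.2 and 38.9 CPM in UNX/DOCA ITF2357 hearts and 34.4, 42.2, 32.7 and 31.6 CPM in UNX/DOCA vehicle hearts, against 56.7, 52.1, 54.7 and 57.4 CPM in Sham vehicle hearts. The Sham vehicle hearts were again the 4 highest of the 12. The log2 fold change of UNX/DOCA vehicle over Sham vehicle was -0.65 ± 0.13 (SE; interval -0.94 to -0.36; adjusted p = 0.0954, and 0.0462 without UNX/DOCA ITF2357 replicate 2). Leaving out each library in turn gave -0.75 to -0.60 with adjusted p up to 0.281, and leaving out UNX/DOCA vehicle replicates 3 and 4 gave -0.53 with 0.645. UNX/DOCA ITF2357 over Sham vehicle gave -0.53 ± 0.13 (SE; interval -0.82 to -0.24; adjusted p = 0.0598), and ITF2357 over vehicle 0.12 ± 0.13 (SE; interval -0.17 to 0.41; adjusted p = 0.671). In the GENCODE vM21 annotation 31.08% of the Kcnj3 exon bases are overlapped by Gm26794, a noncoding gene on the opposite strand. Its gene ID was not among those counted, so no level of it can be given. With the strand setting of the counting unknown, reads of both genes cannot be told apart where they overlap.

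Kcnj5, encoding Kir3.4, varied more among UNX/DOCA hearts than among Sham vehicle hearts. It had 85.1, 37.6, 61.4 and 34.6 CPM in UNX/DOCA ITF2357 hearts and 55.1, 44.0, 30.1 and 30.1 CPM in UNX/DOCA vehicle hearts, against 77.1, 63.5, 69.7 and 71.5 CPM in Sham vehicle hearts. Replicate 1 of UNX/DOCA ITF2357 was the highest of all 12, while replicates 2 and 4 of that group lay among the UNX/DOCA vehicle values. UNX/DOCA vehicle over Sham vehicle gave a log2 fold change of -0.82 ± 0.27 (SE; interval -1.42 to -0.23; adjusted p = 0.195), and -0.51 with an adjusted p of 0.824 without UNX/DOCA vehicle replicates 3 and 4. ITF2357 over vehicle gave 0.46 ± 0.27 (SE; interval -0.14 to 1.05; adjusted p = 0.395) and UNX/DOCA ITF2357 over Sham vehicle -0.37 ± 0.27 (SE; interval -0.96 to 0.22; adjusted p = 0.485). Kcnj3 over Kcnj5 per length was 0.47 to 1.01 in UNX/DOCA ITF2357, 0.56 to 0.97 in UNX/DOCA vehicle and 0.66 to 0.74 in Sham vehicle hearts, the narrowest range of the 3.

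Because both genes are characteristic of atrium and conduction tissue, markers of those were read beside them. Of 6 atrial markers, Myl7, Sln, Bmp10 and Mybphl were too low to test, with 0 to 16, 0 to 76, 0 to 4 and 1 to 24 counts per library. The summed atrial level was 215 to 834 CPM in UNX/DOCA ITF2357, 224 to 327 CPM in UNX/DOCA vehicle and 80.6 to 152 CPM in Sham vehicle hearts, nearly all of it Nppa, the natriuretic peptide gene that strained ventricle also expresses. Nppa was higher in UNX/DOCA ITF2357 than in Sham vehicle hearts (log2 fold change 2.31; edgeR adjusted p = 0.0269), and the atrial sum was above that of Sham vehicle in both UNX/DOCA groups, in which Kcnj3 and Kcnj5 averaged lower. Myl4, the atrial light chain gene and the other atrial marker tested, averaged 1.19, 1.67 and 2.08 CPM in UNX/DOCA ITF2357, UNX/DOCA vehicle and Sham vehicle hearts. Its log2 fold change was -0.32 in UNX/DOCA vehicle over Sham vehicle (edgeR adjusted p = 0.481) and -0.79 in UNX/DOCA ITF2357 over Sham vehicle (adjusted p = 0.0673), where the hearts of the first group lay below all Sham vehicle hearts.

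Of 6 conduction markers, 5 were tested, of which 3 lay below 0 in UNX/DOCA vehicle over Sham vehicle and none was called by edgeR in any of the 3 comparisons. Hcn4, the pacemaker channel gene, had 3.36 to 9.43 CPM in UNX/DOCA ITF2357 and 3.95 to 6.65 CPM in UNX/DOCA vehicle hearts, against 8.58 to 13.8 CPM in Sham vehicle hearts. All 4 UNX/DOCA vehicle hearts lay below all 4 Sham vehicle hearts, as in Kcnj3 and Kcnj5, with a log2 fold change of -1.02 (adjusted p = 0.155). UNX/DOCA ITF2357 overlapped Sham vehicle, with -1.12 (adjusted p = 0.0734). Cntn2, a contactin of the conduction system, averaged 1.00, 1.35 and 2.67 CPM in UNX/DOCA ITF2357, UNX/DOCA vehicle and Sham vehicle hearts, with -0.96 in UNX/DOCA vehicle over Sham vehicle (adjusted p = 0.510). The transcription factor genes Tbx3 and Shox2 had 0.53 and 0.79 there (adjusted p = 0.455 and 0.431), and all UNX/DOCA vehicle hearts lay above all Sham vehicle hearts in Tbx3. Isl1 had 0 to 1 counts per library. The part of atrial and conduction tissue in the Kcnj3 and Kcnj5 values was not tested.

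The classical inward rectifier genes overlapped between the 3 groups. Kcnj2, encoding Kir2.1, had 50.4, 57.8, 43.0 and 40.9 CPM in UNX/DOCA ITF2357, 29.3, 55.7, 37.6 and 35.0 CPM in UNX/DOCA vehicle, and 70.9, 47.2, 25.8 and 38.9 CPM in Sham vehicle hearts. The highest and the lowest of the 12 were both Sham vehicle hearts, replicates 1 and 3. Its log2 fold changes were -0.21 ± 0.27 in UNX/DOCA vehicle over Sham vehicle, 0.29 ± 0.27 in ITF2357 over vehicle and 0.07 ± 0.27 in UNX/DOCA ITF2357 over Sham vehicle (SE), with adjusted p of 0.737, 0.607 and 0.915 and a widest interval of -0.80 to 0.37 for the first of these. Kcnj12, encoding Kir2.2, had 26.9, 22.96, 24.3 and 20.7 CPM in UNX/DOCA ITF2357, 21.5, 22.9, 16.6 and 14.2 CPM in UNX/DOCA vehicle, and 25.1, 20.4, 26.5 and 20.3 CPM in Sham vehicle hearts. Replicates 3 and 4 of UNX/DOCA vehicle, the hearts with high neutrophil genes, were the 2 lowest. ITF2357 over vehicle gave 0.33 ± 0.15 (SE; interval 0.01 to 0.66; adjusted p = 0.259), and 0.09 without those hearts. UNX/DOCA vehicle over Sham vehicle gave -0.29 ± 0.15 (SE; interval -0.62 to 0.03; adjusted p = 0.361), and -0.06 without them. UNX/DOCA ITF2357 over Sham vehicle gave 0.04 ± 0.15 (SE; adjusted p = 0.916).

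Genes that act with these channels were read from 5 lists. Of 9 other inward rectifier genes, 5 were tested and none was called; Kcnj14, encoding Kir2.4, was the most abundant, with 49.7 ± 9.0, 57.4 ± 2.1 and 57.8 ± 5.1 CPM in UNX/DOCA ITF2357, UNX/DOCA vehicle and Sham vehicle hearts (SD, n = 4). Kcnj15, encoding Kir4.2, had a log2 fold change of 0.96 in UNX/DOCA vehicle over Sham vehicle at means of 3.77 and 1.93 CPM (edgeR adjusted p = 0.313). Kcnj16, encoding Kir5.1, had 0.99 there (interval -1.09 to 3.07; adjusted p = 0.649), and in ITF2357 over vehicle Kcnj14 had -0.21 and Kcnj10, encoding Kir4.1, 0.44 (adjusted p = 0.335 and 0.631). The values of Kcnj16 and Kcnj10 rest on few reads: 1, 23, 1 and 56 in Sham vehicle hearts for Kcnj16, and 3 to 18 per library for Kcnj10. Kcnj1, Kcnj6, Kcnj9 and Kcnj13 had 0 to 11 counts in a library and were not tested.

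In the pathway that opens the acetylcholine-gated channel, 16 of 16 genes were tested. None was called in UNX/DOCA vehicle against Sham vehicle, where edgeR called 0% of all genes. At an unadjusted edgeR p under 0.05, 8 of the 16 differed in that comparison, against 15.9% of all genes. Of the 16, 12 lay above 0, against 8678 of the 16981 genes tested. In ITF2357 against vehicle 2 were higher, against 0.459% of all genes (78), and none was lower, against 0.442% (75). Gnai1, an inhibitory G protein alpha subunit, had 15.1, 13.0, 15.4 and 16.1 CPM in UNX/DOCA ITF2357 hearts, against 10.0, 9.15, 7.02 and 8.38 CPM in UNX/DOCA vehicle hearts. All 4 treated hearts lay above all 4 UNX/DOCA vehicle hearts and above the 9.73 to 11.4 CPM of Sham vehicle hearts. The log2 fold change over UNX/DOCA vehicle was 0.78 (edgeR adjusted p = 0.0160), 0.63 without UNX/DOCA vehicle replicates 3 and 4 (adjusted p = 0.0825), and the adjusted p was 0.0112 to 0.0641 over libraries left out in turn, above 0.05 without replicate 1, 3 or 4 of UNX/DOCA ITF2357 (0.0639, 0.0556 and 0.0523) or replicate 4 of UNX/DOCA vehicle (0.0641). Rgs6, a GTPase-activating protein that shortens G protein signalling to this channel in mouse heart, had 21.1, 15.7, 18.8 and 16.2 CPM in UNX/DOCA ITF2357 hearts and 10.3, 14.0, 11.8 and 11.2 CPM in UNX/DOCA vehicle hearts, against 18.1, 16.7, 17.8 and 15.6 CPM in Sham vehicle hearts. The UNX/DOCA vehicle hearts were the 4 lowest. The log2 fold change of ITF2357 over vehicle was 0.60 (adjusted p = 0.0388; 0.56 with 0.254 without replicates 3 and 4; 0.0259 to 0.123 over libraries left out in turn, above 0.05 except without replicate 2 of either UNX/DOCA group), and of UNX/DOCA vehicle over Sham vehicle -0.53 (adjusted p = 0.0998). Rgs2, another regulator of G protein signalling, averaged 36.9 ± 7.73 CPM in UNX/DOCA ITF2357 and 35.1 ± 6.38 CPM in UNX/DOCA vehicle, against 24.6 ± 1.80 CPM in Sham vehicle hearts (SD, n = 4; adjusted p = 0.151 for UNX/DOCA vehicle over Sham vehicle). The list's median log2 fold changes were 0.07 in UNX/DOCA vehicle over Sham vehicle and 0.07 in ITF2357 over vehicle.

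**Figure D5:**
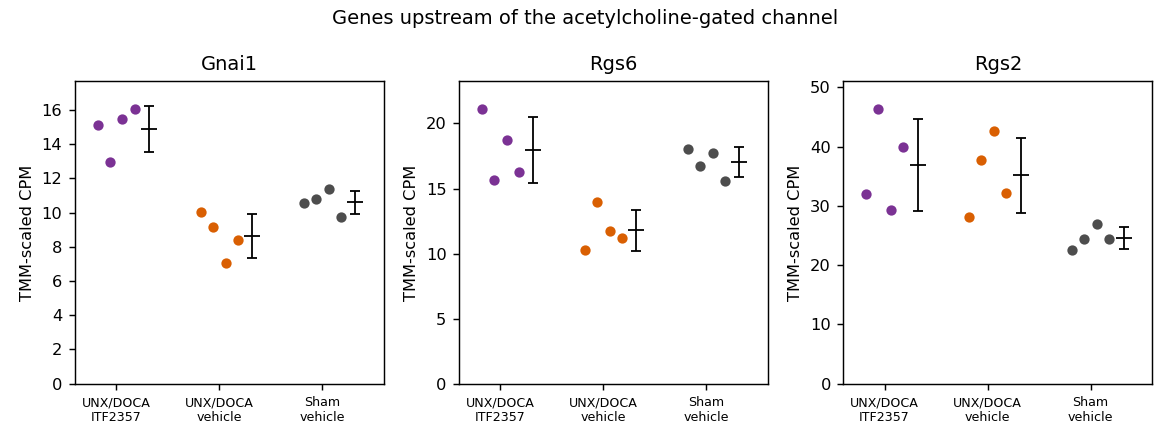
TMM-scaled CPM, on linear axes from 0, of Gnai1, Rgs6 and Rgs2 in the 4 hearts of each group, with the mean ± SD beside the points. Gnai1 is highest in UNX/DOCA ITF2357, Rgs6 lowest in UNX/DOCA vehicle, and Rgs2 lowest in Sham vehicle.

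No gene was called among 11 scaffold and trafficking partners of Kir channels in either comparison with UNX/DOCA vehicle. Flna, the actin crosslinker filamin A that binds Kir2.1, averaged 124 ± 14.7 CPM in UNX/DOCA ITF2357 and 186 ± 40.5 CPM in UNX/DOCA vehicle, against 129.8 ± 8.50 CPM in Sham vehicle hearts (SD, n = 4). Its log2 fold changes were -0.58 for ITF2357 over vehicle and 0.52 for UNX/DOCA vehicle over Sham vehicle (edgeR adjusted p = 0.0581 and 0.121), and -0.37 and 0.30 without UNX/DOCA vehicle replicates 3 and 4 (adjusted p = 0.254 and 0.645). Cav3, muscle caveolin, had -0.30 and 0.15 in these comparisons (adjusted p = 0.149 and 0.510), and Dlg1, the scaffold SAP97, 0.25 and -0.22 (adjusted p = 0.214 and 0.309). None of 12 genes of the synthesis and turnover of PIP2, the membrane lipid that Kir channels need to open, was called in either; Inpp5e, Pi4ka, Plcb3 and Pip5k1b had the smallest p-values, with log2 fold changes of -0.25 and -0.13 in UNX/DOCA vehicle over Sham vehicle for Inpp5e and Pi4ka, and of -0.23 and -0.22 in ITF2357 over vehicle for Plcb3 and Pip5k1b. Of 13 energy-sensing partners of KATP channels, none was called in UNX/DOCA vehicle against Sham vehicle and 1 was lower in ITF2357 against vehicle, where 0.442% of all genes were. That gene, Ldha, a lactate dehydrogenase subunit, had 370, 405, 428 and 424 CPM in UNX/DOCA ITF2357 hearts, against 486, 503, 501 and 502 CPM in UNX/DOCA vehicle and 454 to 498 CPM in Sham vehicle hearts. All treated hearts lay below all others. Its log2 fold change over UNX/DOCA vehicle was -0.29 (adjusted p = 0.0422; 0.0474 to 0.123 over libraries left out in turn, above 0.05 except without replicate 1 of UNX/DOCA vehicle, and 0.238 without replicates 3 and 4 of that group). Prkaa1, a catalytic subunit of AMP-activated kinase, had 0.25 in that comparison (adjusted p = 0.106), and Ckmt2, mitochondrial creatine kinase, -0.19 in UNX/DOCA vehicle over Sham vehicle (adjusted p = 0.267). Aldoa, with 0.73 in the same comparison (adjusted p = 0.123), is uncertain, since 2 gene IDs carry this symbol and the tested one had 70 to 173 reads.

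Likeness between genes was measured as the root mean square difference of their log2 CPM, centred over the 12 hearts, among 13194 genes with a symbol and at least 1 CPM. Such likeness rests on the same 12 libraries throughout. Nearest to Kcnj3 were Col6a6, a collagen VI chain gene, at 0.15 and Gm20544 at 0.16, against a spread of Kcnj3 itself of 0.34 (SD). Col6a6 averaged 6.76 ± 1.4 CPM in UNX/DOCA ITF2357 and 5.33 ± 0.5 CPM in UNX/DOCA vehicle, against 9.88 ± 0.9 CPM in Sham vehicle hearts (SD, n = 4), and Gm20544 was called lower in UNX/DOCA ITF2357 than in Sham vehicle (log2 fold change -0.43; edgeR adjusted p = 0.0377). For Kcnj5 the nearest were Pxylp1 and Ralgps2 at 0.22 and 0.23, and for Kcnj2 Zfp961 and Fam110a at 0.18 and 0.21. Abcc8 had Syt11 and Ddx23 at 0.06 and 0.09, Kcnj8 had 2500004C02Rik and Gtf3c5 at 0.05 and 0.11, Kcnj11 had Kalrn and Rbm26 at 0.09 and 0.10, and Kcnj12 had Dennd1b and Paqr9 at 0.13 and 0.13.

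Among the channel genes themselves, Abcc8 and Kcnj8 were the nearest pair, at 0.20, and Kcnj2 and Kcnj5 the farthest, at 0.61. This distance grows with the genes' own spreads, which were 0.15 and 0.17 (SD) for Abcc8 and Kcnj8 and 0.40 and 0.52 for Kcnj2 and Kcnj5. A small distance is thus no sign of a shared pattern, and 3325 of the 13194 genes were nearer to Abcc8 than Kcnj8 was. Kcnj3 and Kcnj5 were 0.32 apart, Abcc9 and Kcnj11 0.33, Abcc9 and Kcnj8 0.30, and Abcc9 and Kcnj3 0.24. Abcc9 and Kcnj8 are adjacent on chromosome 6, and 4601 of the 13194 genes were nearer to Abcc9 than Kcnj8 was; Abcc8 and Kcnj11 are adjacent on chromosome 7 and were 0.25 apart. On the other side of Abcc9, Cmas, a sialic acid activating enzyme gene, had a log2 fold change of 0.15 in UNX/DOCA vehicle over Sham vehicle (edgeR adjusted p = 0.297), and Ldhb, on the other side of Kcnj8, -0.10 (adjusted p = 0.533). The nearest tested neighbours of the other genes were Nomo1 and Ush1c, Kcnj16 and Sox9 (Kcnj2), Arl6ip6 and Nr4a2 (Kcnj3), Arhgap32 and Fli1 (Kcnj5), and Map2k3 and Tnfrsf13b (Kcnj12). None of these neighbours was called in any of the 3 comparisons. Beside Kcnj3, Arl6ip6 had -0.23 in UNX/DOCA vehicle over Sham vehicle (edgeR adjusted p = 0.387). On its other side Nr4a2, with a mean of 3.35 CPM, had -0.69 (interval -1.86 to 0.48, adjusted p = 0.565). Beside Kcnj5, Arhgap32 had -0.30 (adjusted p = 0.490).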

How the data were processed

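Poly(A) RNA from about 10 mg of mouse left ventricle (12 libraries, 4 biological replicates in each of 3 groups per the labels' protocols) had been made into directional libraries and read as 2 × 150 bases. The submitters' processing notes name FastQC 0.11.9, STAR 2.7.10b and the mm39 build; how reads were counted, with which annotation and whether by strand, is not given in the sources used here. The authors deposited raw read counts per Ensembl gene ID, 23354045 to 34908810 per library. Symbols, exon lengths, gene neighbours and overlaps came from GENCODE vM21 (GRCm38), matched by gene ID, and at least 99.166% of each library's counts had a symbol.

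Counts of all 12 libraries were fitted together in edgeR 4.0.16 (R 4.3.3): filterByExpr with a minimum count of 10, TMM scaling, 1 term per group, robust quasi-likelihood F test with 9 residual degrees of freedom before moderation, and Benjamini-Hochberg adjustment over 16981 genes at a threshold of 0.05. CPM are TMM-scaled, and the likeness of genes was taken on log2 CPM (prior count 2). The procedure was also run on simulated counts without deviating hearts. The outcome is not reported here and is not used as support for the results. Alternatives were RLE, upper quartile and unscaled totals, other low-count filters, DESeq2 1.42.0, limma-voom (limma 3.58.1) with sample weights, only the groups compared, a replicate block, each library left out, UNX/DOCA vehicle libraries 3 and 4 left out, and, added after the data had been seen, DESeq2 and limma-voom without these 2 libraries and both UNX/DOCA groups averaged. The members, lists and tests were chosen with earlier results of these data known. Named were the 8 members; in each pathway list the 2 genes with the smallest p in UNX/DOCA vehicle against Sham vehicle and the 2 in ITF2357 against vehicle; the 2 genes nearest to each member in pattern; the nearest tested protein-coding neighbours; and the most abundant marker of each cell type list. Some of these are not reported here. Genes too low to test and markers given singly were named after their values had been seen. The treatment label of the ITF2357 libraries carries a running number, so their titles were used to group them. Markers of endothelial cells summed to 735 to 1137, 918 to 1022 and 862 to 979 CPM in UNX/DOCA ITF2357, UNX/DOCA vehicle and Sham vehicle hearts, led by Pecam1; fibroblasts to 1425 to 1720, 1528 to 2113 and 1521 to 1787, led by Gsn; macrophages to 142 to 252, 148 to 412 and 143 to 185, led by Csf1r; neutrophils, led by S100a9, to 5.03 to 28.2, 3.81 to 511 and 13.6 to 44.9. P-values measure the spread between these biological replicates; no libraries were duplicates (chi-square per degree of freedom between replicates at least 11.0).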

Additional observations from a re-analysis of the deposited data

Results flagged for a closer look

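In Abcc9, replicate 3 of UNX/DOCA vehicle stood far from the other hearts of its group, with 240.8 CPM against 321 CPM in the nearest of them, a gap that is 0.892 of the group's range (critical value 0.829 for 4 samples). This library also had the highest summed level of neutrophil genes. In all, 24 groups of 4 values were examined, and chance gives about 1 such value in 20 groups. Without this library the log2 fold change of Abcc9 in UNX/DOCA vehicle over Sham vehicle was -0.45, with an adjusted p of 0.184 in edgeR.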

How the results depend on the processing

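In UNX/DOCA vehicle against Sham vehicle, 2 of the 8 channel genes (Abcc9 and Kcnj3) were called without a filter on low counts, in DESeq2 and in limma-voom, where edgeR with its filter called 0; leaving out each library in turn gave 0 to 1. In UNX/DOCA ITF2357 against Sham vehicle, 1 (Kcnj3) was called without the filter and in DESeq2, and 2 (Abcc9 and Kcnj3) in limma-voom; leaving out each library in turn gave 0 to 1. Without UNX/DOCA vehicle libraries 3 and 4, edgeR, DESeq2 and limma-voom called 0, 0 and 0 in the first comparison and 0, 2 and 2 (Abcc9 and Kcnj3) in the second. In ITF2357 against vehicle 0 were called in each setting run. Over all genes, UNX/DOCA vehicle against Sham vehicle gave 0 calls, 7 with upper quartile scaling, 210 without the filter, 593 in DESeq2, 521 in limma-voom, 31 with the replicate block, 1 without UNX/DOCA vehicle libraries 3 and 4 (46 in DESeq2, 0 in limma-voom), 4 with both UNX/DOCA groups averaged, and 0 to 380 leaving out each library. ITF2357 against vehicle gave 153 calls, 352 without the filter, 928 in DESeq2, 251 in limma-voom, 68 with the replicate block, 5 with only the 2 groups compared, 12 without those 2 libraries (177 in DESeq2, 0 in limma-voom), and 14 to 243 leaving out each library. UNX/DOCA ITF2357 against Sham vehicle gave 298 calls, 1180 in DESeq2, 1506 in limma-voom, 192 with the replicate block, 475 with only the 2 groups, 481 without those 2 libraries (1404 in DESeq2, 1253 in limma-voom), and 17 to 616 leaving out each library. The cause of these shifts was not tested.

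In edgeR and limma-voom, values changed sign in ITF2357 over vehicle for Abcc8 (log2 fold change 0.026 with upper quartile scaling, 0.084 in limma-voom and 0.065 without UNX/DOCA vehicle libraries 3 and 4), Kcnj3 (-0.0083 without those libraries) and Kcnj11 (-0.12 without them). Without those libraries DESeq2 gave 0.065, -0.0082 and -0.12 and limma-voom 0.067, 0.015 and -0.13 for Abcc8, Kcnj3 and Kcnj11, and limma-voom gave 0.0038 for Kcnj12 in UNX/DOCA vehicle over Sham vehicle. Leaving out each library also turned signs: Kcnj2 ran from -0.44 to 0.071 in UNX/DOCA vehicle over Sham vehicle and from -0.13 to 0.36 in UNX/DOCA ITF2357 over Sham vehicle; Kcnj8 from -0.16 to 0.034 and Kcnj12 from -0.033 to 0.10 in the last comparison; Abcc8 from -0.062 to 0.10, Kcnj8 from -0.022 to 0.18 and Kcnj11 from -0.044 to 0.13 in ITF2357 over vehicle. Of the single-gene values over all settings, those of Gnai1, Rgs6 and Ldha in ITF2357 over vehicle included, 574 kept direction and side of the threshold, 17 passed it anew, 39 lost it and 26 changed sign.

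The replicate numbers did not pair the samples: deviations of same-numbered libraries correlated at -0.187 to 0.246 over 12 pairs, and 3 of 12 libraries were closest to their own number. With the replicate block, edgeR's adjusted p in UNX/DOCA vehicle against Sham vehicle was 0.0648 for Abcc9, 0.0933 for Kcnj3 and 0.103 for Kcnj5.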
